A study of Mus musculus with 8 samples.

Results

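Gene expression in preB cells was compared with that in pre-proB cells of Erg fl/fl control mice, which spans early B lymphopoiesis in the bone marrow from the earliest B220+ progenitor to the stage that has finished heavy chain rearrangement. The comparison took the 2 preB and the 2 pre-proB libraries of this genotype among the 8 RNA-seq libraries of the study, and covered the 13397 of 27179 Entrez genes that reached at least 0.5 CPM (counts scaled to a common library total) in at least 2 of these 4 libraries. The 2 Erg fl/fl proB libraries, from the stage in between, were used to see when along the span a difference was reached and which genes came back to where they began. The last 2 libraries, from Rag1CreT/+;ErgD/D pre-proB cells, in which Cre deletes the floxed Erg alleles, entered only as an alternative fit. Erg fl/fl mice carried loxP-flanked, undeleted Erg alleles and no Rag1Cre allele, and were between 7 and 10 weeks old. By the study's list of gates, all 3 populations were among others B220+ and without surface IgM, IgD, NK1.1 or CD11c. Pre-proB cells were CD43+ CD24-, proB cells CD43+ CD24+ and preB cells CD43- CD24+, so the genes for these surface proteins were used in sorting and are no finding here. By the study's methods, each population came from independent sorts of 2 mice per genotype, and the 2 libraries of a stage were biological replicates. The sex of the mice is not given in the sources used here.

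B cells arise from lymphoid progenitors through ordered stages. The transcription factors E2A, Ebf1 and Pax5 open the B cell programme, the Rag1 and Rag2 recombinase joins the segments of the heavy chain gene, and a productive heavy chain then pairs with the surrogate light chain to form the pre-B cell receptor on the surface of large cycling cells. Signals from that receptor and from the interleukin-7 receptor drive division, after which the cells leave the cycle and rearrange their light chain genes.

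The 6 libraries held between 15565381 and 18457632 counts, so 3 counts, taken as the limit for a gene without a count, corresponded to between 0.162 and 0.194 CPM in a library. Every library held RNA of Y-linked genes and of Xist, with Ddx3y between 87.7 and 104 CPM and Xist between 473 and 1009 CPM. Ddx3y is a gene of male cells and Xist an RNA of female cells, so these values do not show each library to come from a single mouse. The pre-proB libraries differed from each other in a small set of genes. Of 9232 genes with a pre-proB mean of at least 10 CPM, 70 were over 2-fold higher in replicate 1 than in replicate 2 and 3 were over 2-fold lower. The 70 held Cd79a, Ebf1, Pax5, Pou2af1, Rag1, Rag2, Igll1, the 3 Vpreb genes and Erg itself, and 56 of them were called higher in proB than in pre-proB cells. Fold changes of these genes over the span rest on the mean of unlike libraries, so for the genes just named the value without each pre-proB library is given as well.

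Of the 13397 genes, 9618 (71.8%) were called different between preB and pre-proB cells at an adjusted p below 0.05 (edgeR quasi-likelihood test, Benjamini-Hochberg adjustment). Of these, 4793 (35.8% of all tested) were higher in preB cells and 4825 (36.0%) were lower. The calls were near balance in number and unlike in size. Among called genes the median log2 fold change was 0.67 for those higher and -1.26 for those lower, and 1692 genes were at least 2-fold higher against 2787 at least 2-fold lower. Past 4-fold the counts were 718 and 1644, and past 16-fold 173 and 724. Under 2-fold lay 5139 of the 9618 called genes. The median over all genes tested was 0.01, and the values of the 2 stages did not overlap for 85.7% of the genes.

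The genes lost by at least 16-fold were abundant at the start. They took 6.87% and 7.30% of the counts in the pre-proB libraries, 0.380% and 0.459% in proB and 0.138% and 0.144% in preB. Genes gained by at least 16-fold took 0.0492% and 0.0277% of the counts at the pre-proB stage, 0.474% and 0.442% at the proB stage and 1.09% and 1.07% at the preB stage. Most of a large change was already present in proB cells. Among called genes with at least a 4-fold net change, a median of 72.2% of the net log2 change was present in proB for the genes gained and 72.0% for the genes lost.

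Of 10 preB-like marker genes, 8 were called higher in preB than in pre-proB cells and 0 lower, with a median log2 fold change of 3.56. Cd24a in this list was a gate gene. In pre-proB cells 9 of the 10 were higher in replicate 1 than in replicate 2. Without replicate 1 the median was 4.20 and 9 were called higher, and without replicate 2 it was 3.03, with 8 called higher and 2, the surrogate light chain genes Igll1 and Vpreb1, lower. Il2ra, the CD25 chain that marks small preB cells, stood at 6.53 and 5.29 CPM in pre-proB cells, at 69.5 and 69.0 CPM in proB cells and at 294 and 307 CPM in preB cells. Cd2 rose from 3.82 and 4.75 CPM to 119 and 129. In the preB libraries the markers of other cell types were low. Of all genes tested, 35.8% were called higher and 36.0% lower, the shares to set beside the marker counts given here. The summed CPM of 14 plasmacytoid dendritic-like markers was 14375 and 15297 in pre-proB cells, 585 and 638 in proB cells and 491 and 517 in preB cells, and all 14 were called lower in preB with a median log2 fold change of -7.12. All 13 NK-like markers were lower, with sums of 249 and 266 CPM in pre-proB and of 11.5 and 7.61 in preB. Of 12 T-like markers 11 were lower, with sums of 793 and 944 against 15.9 and 17.0 CPM. Most of the T-like sum in pre-proB cells was Cd4 and Cd8a, given below, and Cd3e was low. Of 17 myeloid-like markers tested, 11 were lower and 0 higher, with sums of 919 and 980.4 CPM in pre-proB cells, 238 and 567 CPM in proB cells and 108 and 75.4 CPM in preB cells. None of the markers tested in these 4 lists was without a count over both preB libraries. A marker can pass the filter through the libraries of 1 stage alone, and its direction is then fixed by the filter. Left out one at a time, the pre-proB libraries changed the number of T-like and NK-like markers tested to 5 and 8. The filter then asks for 2 of 3 libraries. Median log2 fold changes without replicate 1 and 2 were -3.46 and -3.37 for the T-like and -3.31 and -2.68 for the NK-like markers left. The counts of lower T-like and NK-like markers were thus set in part by the filter. Of the 17 myeloid-like markers, the number called lower fell to 5 and 8 of 14 without pre-proB replicate 1 and 2 (with 1 and 0 called higher), and to 8 and 7 of 17 without preB replicate 1 and 2. Neutrophil granule genes stood out in 1 proB library, with S100a8 at 37.9 and 107 CPM and Ngp at 32.9 and 77.0 CPM in proB replicates 1 and 2. All 7 erythroid-like markers tested were higher in preB, at low levels, with summed CPM of 3.94 and 4.69 in pre-proB and 41.8 and 35.2 in preB. Hba-a2, an alpha globin gene, went from 0.647 and 0.841 CPM to 13.2 and 10.5 CPM. Of 13 mature B-like markers, 8 (61.5%) were higher and 5 (38.5%) lower, the latter near the 36.0% of all genes tested. Ighd and Tnfrsf13c, the BAFF receptor gene, rose from 43.3 and 43.6 to 176 and 155 CPM and from 37.2 and 34.0 to 232 and 248 CPM, and the 5 that fell included 3 MHC class II genes and their activator Ciita. In bulk libraries, fewer cells of a type and less RNA per cell cannot be told apart, and the part that such cells have in any difference given here was not tested.

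**Figure D1:**
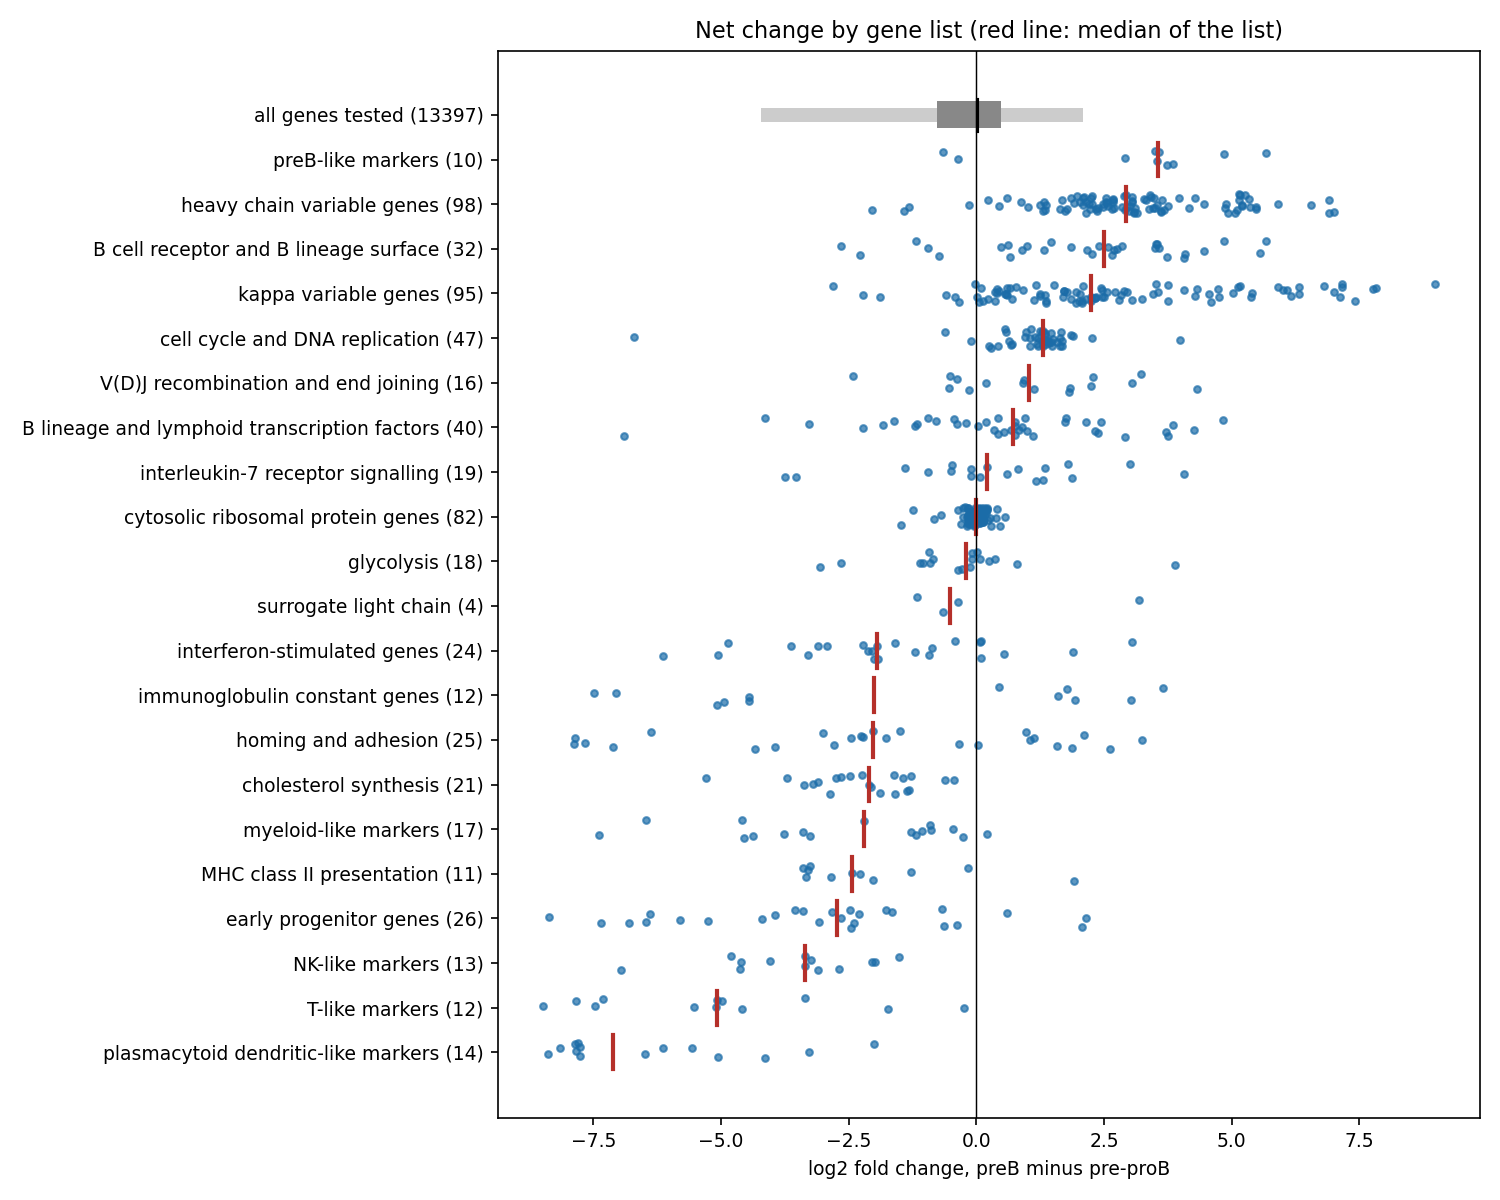
Net log2 fold change of preB minus pre-proB cells for the tested genes of each list, with the number of genes in parentheses. Each point is a gene, each red line the median of a list, and the grey bars at the top span the 5th to 95th and the 25th to 75th percentiles of all 13397 genes. The preB-like list lies at a median of 3.56, ribosomal protein genes at 0.00 and plasmacytoid dendritic-like genes at -7.12.

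Upstream sequence is shown for genes that stand for the groups that follow: Cd79a for lasting gains, Igll1 for a gain that was lost again, and Siglech and Bst2 for lasting losses. The 250 bases before the RefSeq start site were taken from GRCm38.p6 (the mm10 build), 5′ to 3′ on the strand of the gene. Cd79a lies on the plus strand at chr7:24897247-24897496, Igll1 on the minus strand at chr16:16863986-16864235, Siglech on the plus strand at chr7:55767934-55768183 and Bst2 on the minus strand at chr8:71537473-71537722. Capitals mark the E-box CAGGTG on either strand in the first 3, the letters that E proteins such as E2A (Tcf3) and E2-2 (Tcf4) are known to bind. In Bst2 they mark overlapping matches to GAAA followed by any 2 bases and GAAA again, on either strand, a pattern of interferon response elements.
Cd79a: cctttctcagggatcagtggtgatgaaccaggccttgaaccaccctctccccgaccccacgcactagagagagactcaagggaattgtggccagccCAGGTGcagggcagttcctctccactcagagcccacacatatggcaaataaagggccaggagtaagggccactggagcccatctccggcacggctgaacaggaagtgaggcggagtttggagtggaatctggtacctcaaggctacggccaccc
Igll1: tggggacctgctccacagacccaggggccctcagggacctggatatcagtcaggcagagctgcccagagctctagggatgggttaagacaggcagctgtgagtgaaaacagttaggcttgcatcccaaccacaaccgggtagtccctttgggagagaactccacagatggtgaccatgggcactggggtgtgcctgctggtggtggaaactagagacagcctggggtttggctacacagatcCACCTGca
Siglech: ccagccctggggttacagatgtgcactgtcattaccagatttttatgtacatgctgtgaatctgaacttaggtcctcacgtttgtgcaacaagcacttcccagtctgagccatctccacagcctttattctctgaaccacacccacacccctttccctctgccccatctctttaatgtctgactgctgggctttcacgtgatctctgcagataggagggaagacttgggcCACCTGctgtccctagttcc
Bst2: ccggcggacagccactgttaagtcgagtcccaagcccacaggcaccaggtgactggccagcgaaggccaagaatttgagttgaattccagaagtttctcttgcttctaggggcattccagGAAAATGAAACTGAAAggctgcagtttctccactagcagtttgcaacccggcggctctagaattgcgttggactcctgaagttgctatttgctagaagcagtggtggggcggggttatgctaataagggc

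The E-box letters were present, on either strand, in the windows of 19.4% of the 27025 genes with a window, 16.2% of the genes called higher and 20.7% of those called lower. They were found in 10 of 20 B lineage surface genes with a window and in 7 of 11 plasmacytoid dendritic-like genes, groups that moved in opposite directions. The interferon pattern was found in 3.46% of all genes and in 8 of 18 interferon-stimulated genes. Both patterns were chosen after the values had been seen and a match is no evidence of binding. The CAGGTG letters also occur once in the Bst2 window, left in lower case, and do not overlap the matches shown there.

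The largest lasting gains included genes of adhesion, extracellular matrix, the cytoskeleton and lymphocyte signalling. They were among the 15 genes taken by size or by p-value, so their own tests are a description of that choice. Col5a3, which encodes a collagen V chain, stood at 2.20 and 1.86 CPM in pre-proB cells, 72.5 and 63.5 in proB and 521 and 480.2 in preB. It was 246-fold higher in preB than in pre-proB cells, a log2 fold change of 7.94 ± 0.17 (SE, n = 2 against 2; edgeR adjusted p = 6.25e-09). Reln, the secreted glycoprotein reelin, was at no more than 1.81 CPM in either library at the start and at 251 and 227 CPM at the end.

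Trib2, a pseudokinase of the Tribbles family, went from 3.75 and 2.76 CPM in pre-proB cells to 64.7 and 66.2 CPM in proB cells and 229 and 237 CPM in preB cells, 71.7-fold in all. Rasgrp1, which activates Ras downstream of antigen receptors, stood at 5.82 and 7.09 CPM at the start and at 223 and 228 CPM at the end. Myl4, a myosin light chain, differed in its course: it was at 4.20 and 2.88 CPM in pre-proB, and had reached 228 and 197 CPM in proB against 301 and 294 in preB. This group also held Rbm24, an RNA-binding protein (log2 fold change of 7.86), the secreted protein Egfl6 (6.84), the Kelch protein Klhl14 (6.78), the hepatic lipase gene Lipc (6.52), the proteoglycan gene Prg3 (6.45), the orphan receptor Gpr12 (6.44) and the actin-nucleating formin Fmn2 (6.12). Lipc, Rbm24 and Prg3 started from between 2 and 5 counts per library. The log2 fold change moved between 8.03 and 6.10 for Egfl6, 7.02 and 5.46 for Fmn2, 7.22 and 5.85 for Prg3 and 8.62 and 7.25 for Rbm24 without pre-proB replicate 1 or 2. In each of the 15 the proB libraries lay between those of the end stages.

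**Figure D2:**
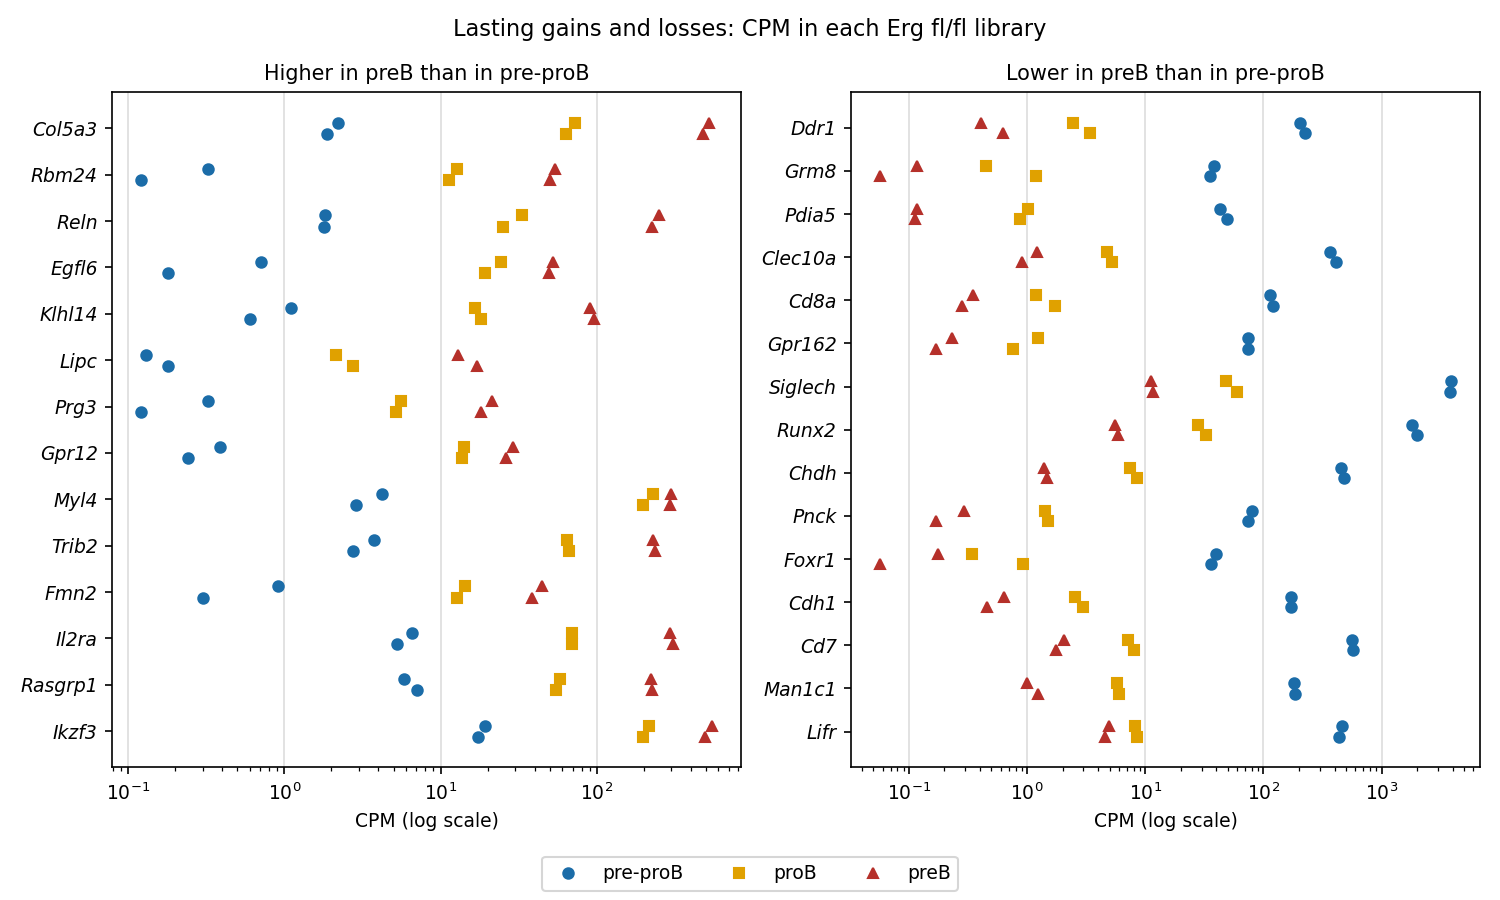
CPM on a log scale in each of the 6 Erg fl/fl libraries for 14 of the genes named as gains (left) and 15 of those named as losses (right), with circles for pre-proB, squares for proB and triangles for preB. The libraries of the 3 stages are separated for each gene, with proB in between, for example Col5a3 from 2.20 and 1.86 to 521 and 480.2 CPM.

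B cell receptor and B lineage surface genes rose as a group with exceptions. Of 32 such genes 27 (84.4%) were called higher and 5 (15.6%) lower, against 35.8% and 36.0% of all genes tested. The median log2 fold change was 2.49 against 0.01 over all genes. Cd79a, the signalling chain of the B cell receptor whose upstream sequence is given above, stood at 170.3 and 59.3 CPM in pre-proB cells, at 812 and 831 CPM in proB cells and at 1251 and 1407 CPM in preB cells. Its log2 fold change was 3.53 ± 0.38 (SE; edgeR adjusted p = 0.000113), and 4.43 without pre-proB replicate 1 or 2.91 without replicate 2. Genes that had similar values in both pre-proB libraries rose too: Ms4a1 (CD20) from 7.89 and 6.49 to 297 and 375 CPM, and Cd40, a receptor for T cell help, from 2.07 and 3.18 to 42.3 and 46.6 CPM. The 5 genes that fell were Cd180, Cd74, Ptprc, Ly6d and Cd53, among them Cd180, a Toll-like receptor homologue, with a log2 fold change of -2.65, and Ptprc, which encodes CD45 and thus the B220 isoform used for sorting, with -1.19.

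The surrogate light chain moved differently from the rest of the receptor. Igll1 (lambda5), shown above, was at 251 and 83.7 CPM in pre-proB cells, at 709.7 and 654 CPM in proB cells and at 103 and 156 CPM in preB cells. Its net log2 fold change was -0.37 ± 0.43 (SE; edgeR adjusted p = 0.463), with 95% limits of -1.36 and 0.62, and turned to 0.57 (adjusted p = 0.0328) without pre-proB replicate 1 and to -1.004 (adjusted p = 0.00131) without replicate 2. Vpreb1, its partner, had 189.7 and 63.6, 451 and 425, and 60.6 and 99.5 CPM, with a net log2 fold change of -0.66 that missed the threshold (edgeR adjusted p = 0.21). Without pre-proB replicate 1 it was 0.27 (adjusted p = 0.321), and without replicate 2 it was -1.30 (adjusted p = 0.000593). Vpreb2, nearly identical in sequence to Vpreb1 so that reads can be shared, was called lower at -1.16 (edgeR adjusted p = 0.0346), a call that did not hold with DESeq2, limma-voom or robust estimation, nor without pre-proB replicate 1, either proB or either preB replicate. Vpreb3 was called higher, at 110.3 and 38.6 CPM in pre-proB and 635 and 712 CPM in preB, with log2 fold changes of 4.07 without pre-proB replicate 1 and 2.56 without replicate 2. The log2 fold change of Vpreb2 was -0.32 and -1.77 in the same settings. The sign of the net difference of Igll1 and Vpreb1 thus depended on which pre-proB library served as the start.

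Of 16 genes of V(D)J recombination and end joining, 10 (62.5%) were called higher and 4 (25%) lower, against 35.8% and 36.0% of all genes tested. Rag1, the recombinase subunit that cuts at recombination signals, rose from 285 and 119 CPM in pre-proB cells to 684 and 591 CPM in proB cells and 1861 and 1931 CPM in preB cells. Its partner Rag2 stood at 43.9 and 18.6, 129 and 125, and 149.9 and 153 CPM. The log2 fold change of Rag1 over the span was 3.23 with all libraries, 3.94 without pre-proB replicate 1 and 2.68 without replicate 2. That of Rag2 was 2.28, 2.96 and 1.73 in the same settings. Dntt, the terminal transferase that adds untemplated bases, went the other way: it was at 727 and 448 CPM in pre-proB cells, at 870.4 and 904 CPM in proB cells and at 72.5 and 148 CPM in preB cells, a net log2 fold change of -2.41 ± 0.32 (SE; edgeR adjusted p = 0.000297). Polm, a related polymerase of light chain joining, rose 20.0-fold from 21.7 and 26.3 to 486 and 476 CPM. Lig4, the ligase of end joining, rose from 26.5 and 17.7 to 183 and 182 CPM. Prkdc, Dclre1c and Atm were the other 3 genes called lower, each by under 2-fold.

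Immunoglobulin genes followed their class. Of 98 heavy chain variable genes tested (120 listed), 84 (85.7%) were called higher and 0 lower. Of 95 kappa variable genes tested (103 listed), 67 (70.5%) were higher and 1 lower. The median log2 fold changes were 2.92 and 2.25, and 35.8% of all genes tested were higher. A segment can pass the filter through the preB libraries alone, and its direction is then fixed by the filter. Ighv1-70 (0 and 0 against 0.992 and 0.852 CPM) and Igkv1-35 (0 and 0 against 1.17 and 0.909 CPM) were such segments. Many others of both classes also lay under 0.5 CPM in both pre-proB libraries. Among them were Ighv1-12 (0.129 and 0.120 against 7.70 and 8.18 CPM) and Igkv9-129 (0.0647 and 0.0601 against 4.84 and 6.30 CPM). The shares called higher were thus set in part by the filter. Reads of near-identical variable segments can be shared among these. Heavy chain variable genes summed to 271 and 203 CPM in pre-proB and 975 and 1033 in preB, and kappa variable genes to 279 and 289 against 652 and 772 CPM. In preB cells single segments had near values in both libraries, as Ighv1-26 with 52.8 and 60.1 CPM and Igkv1-135 with 56.3 and 68.3 CPM, which had started from 10.3 and 7.15 and from 9.18 and 13.6 CPM. In pre-proB cells some segments were high in 1 library: Ighv1-80 was at 71.6 and 6.37 CPM, Igkv4-55 at 70.9 and 5.77 CPM and Igkv12-89 at 0 and 66.6 CPM. None of these 3, picked after their values were seen, was called over the span. Ighm rose from 3160.5 and 2845 to 8854 and 9333 CPM and Iglc1 from 22.6 and 16.9 to 219 and 279.8 CPM. Igha and Jchain, of antibody-secreting cells, fell: Igha was at 196 and 293 CPM in pre-proB cells, at 601 and 643 CPM in proB cells and at 10.2 and 5.68 CPM in preB cells, and Jchain at 97.3 and 105, 218 and 211, and 7.52 and 1.70 CPM. Without preB replicate 1 and 2 the net log2 fold change of Jchain was -5.87 and -3.72. The 6 constant region genes or partners called lower were Igha, Jchain, Ighg1, Ighg2b, Ighg2c and Ighg3, and 4 of them held under limma-voom and under robust estimation. The calls of Ighg1 (adjusted p = 0.117 under limma-voom and 0.0521 under robust estimation) and Ighg2c (0.101 and 0.0643) did not. Ighg2c had 75 and 0 counts and Ighg1 had 1 count in each preB library. Of 6 plasma cell-like markers tested, 3 (50.0%) were higher and 2 (33.3%) lower, where 35.8% and 36.0% of all genes tested were. Their sums were 689 and 736 CPM in pre-proB cells, 543 and 554 CPM in proB cells and 312 and 351 CPM in preB cells. The part of such cells was not tested.

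Of 40 transcription factors of the lymphoid lineages tested, 22 (55.0%) were called higher and 12 (30.0%) lower, where 35.8% and 36.0% of all genes were, with a median log2 fold change of 0.71. Pax5, the factor of B cell commitment, was at 27.0 and 7.69 CPM in pre-proB cells, at 178 and 177 CPM in proB cells and at 248 and 249 CPM in preB cells, and Ebf1 at 59.6 and 21.1, 259 and 266, and 288 and 317 CPM. For both, the step from proB to preB was not called (edgeR adjusted p = 0.216 and 0.611), with log2 differences of 0.49 and 0.20. Over the span the log2 fold change without pre-proB replicate 1 or 2 was 4.96 or 3.15 for Pax5 and 3.78 or 2.29 for Ebf1, and that of Pou2af1, the coactivator OCA-B, was 4.25 with all libraries, 5.04 without replicate 1 and 3.67 without replicate 2. Ikzf3 (Aiolos), which limits the pre-B cell receptor response, kept rising, from 19.3 and 17.4 through 216 and 199 to 549 and 497 CPM. Bach2 rose from 102 and 82.2 to 1316 and 1091 CPM, and Irf4, which acts at light chain rearrangement, from 74.2 and 57.8 to 917 and 865 CPM. Spib, an Ets factor of B cells and plasmacytoid dendritic cells, dipped and then ended higher, at 1313 and 1374 CPM in pre-proB cells, at 825 and 743 CPM in proB cells and at 2376 and 2397 CPM in preB cells. Klf2, a factor of lymphocyte quiescence and trafficking, took the same course, from 82.1 and 88.7 through 39.6 and 46.2 to 173 and 194 CPM.

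Among factors that fell, Irf8 was at 3473 and 3936 CPM in pre-proB cells, at 203 and 220.5 CPM in proB cells and at 203 and 215 CPM in preB cells, with a log2 difference of -0.02 from proB to preB that was not called (edgeR adjusted p = 0.857). Tcf4 (E2-2), the E protein of plasmacytoid dendritic cells, fell from 1552 and 1639.7 to 166 and 161 CPM, while its relative Tcf3 (E2A) rose from 241 and 191 to 1179 and 1168 CPM. Ikzf2 (Helios) went from 41.0 and 43.3 to 0.35 and 0.341 CPM. Erg, which was intact in these mice, was at 69.6 and 25.1 CPM in pre-proB cells, at 149.6 and 133 CPM in proB cells and at 19.7 and 28.9 CPM in preB cells. Its net log2 fold change of -0.95 ± 0.41 (SE) was not called (edgeR adjusted p = 0.0691), and was -0.10 (adjusted p = 0.667) without pre-proB replicate 1 and -1.57 (adjusted p = 4.88e-05) without replicate 2.

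The 16 largest lasting losses were likewise chosen by size or p-value. Siglech, a lectin of plasmacytoid dendritic cells whose upstream sequence is given above, was at 3886 and 3781 CPM in pre-proB cells, at 48.2 and 59.4 CPM in proB cells and at 11.3 and 11.6 CPM in preB cells, 335-fold lower (log2 fold change of -8.39 ± 0.11, SE; edgeR adjusted p = 6.25e-09). Runx2, a Runt-domain transcription factor, was at 1827 and 1988 CPM in pre-proB and 5.60 and 5.91 CPM in preB. Unlike Pax5, these genes had close values in the pre-proB replicates, and over the 14 plasmacytoid dendritic-like genes the ratio of replicate 1 to 2 lay between 0.791 and 1.13.

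Genes of T and myeloid cell surfaces were among the losses. Cd8a, a co-receptor of T cells that some dendritic cells also carry, fell from 113 and 119.8 to 0.35 and 0.284 CPM, Cd4 from 478 and 607 to 1.75 and 2.95 CPM, and Cd7 from 561 and 578 to 2.04 and 1.76 CPM. Cd3e, the T cell receptor chain, had 4.98 and 6.43 CPM at the start and 0.292 and 0.0568 CPM at the end, with a log2 fold change of -6.46 without preB replicate 1 and -4.23 without replicate 2. Clec10a, a lectin of dendritic cells and macrophages, fell from 367 and 411 to 1.22 and 0.909 CPM. Ddr1, a collagen receptor kinase, was the called gene with the largest loss by the rule for named genes, at 206 and 227 CPM in pre-proB cells, at 2.43 and 3.41 CPM in proB cells and at 0.408 and 0.625 CPM in preB cells. Outside immune genes, Chdh, the choline dehydrogenase of mitochondria, fell from 454 and 483 to 1.40 and 1.48 CPM, Cdh1 (E-cadherin) from 171 and 171 to 0.642 and 0.454 CPM, and Lifr, a cytokine receptor, from 464 and 439 to 4.90 and 4.54 CPM. Other losses named by the rule were the glutamate receptor Grm8 (-8.61), the disulfide isomerase Pdia5 (-8.56), the orphan receptor Gpr162 (-8.48), the kinase Pnck (-8.33), the forkhead gene Foxr1 (-8.28) and the mannosidase Man1c1 (-7.34), all as log2 fold changes. Grm8, Pdia5, Foxr1, Gpr162 and Pnck ended at between 1 and 5 counts per library, and the 95% limits were -10.66 and -6.56 for Grm8 and -10.07 and -6.49 for Foxr1. Without preB replicate 1 or 2 the log2 fold change of Foxr1 was -9.20 or -7.68.

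Early progenitor genes were lower as a group, with a median log2 fold change of -2.74. Of 26 tested, 23 (88.5%) were called lower and 3 (11.5%) higher, against 36.0% and 35.8% of all genes tested. A gene can pass the filter through the pre-proB libraries alone, and its direction is then fixed by the filter. Without pre-proB replicate 1 or 2, only 21 of the 26 passed, with median log2 fold changes of -2.55 and -2.43. Flt3, the cytokine receptor of multipotent and lymphoid progenitors, fell from 506 and 573 CPM through 21.4 and 29.1 to 2.51 and 4.09 CPM. Kit, the receptor of stem cell factor, had a different course, with 28.4 and 22.6 CPM in pre-proB cells, 32.3 and 40.6 CPM in proB cells and 3.32 and 4.71 CPM in preB cells. The 3 genes called higher were Il7r, Gfi1 and Cd93. Of 25 homing and adhesion genes, 8 (32.0%) were called higher and 16 (64.0%) lower, and the share of higher genes was near the 35.8% of all genes tested. Ccr9, the gut and thymus homing receptor, fell from 1048 and 1187 to 4.43 and 5.17 CPM. Cxcr4, which retains cells in the marrow, rose from 180.0 and 193 to 535 and 576 CPM and S1pr1, an exit receptor, from 12.6 and 8.17 to 91.0 and 104 CPM.

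All 21 cholesterol synthesis genes tested were called lower, with a median log2 fold change of -2.11, where 36.0% of all genes tested were lower. Sqle, which commits squalene to sterols, went from 95.6 and 115 through 26.6 and 30.9 to 10.1 and 10.3 CPM. Hsd17b7 had the smallest difference of the list, at -0.44 (edgeR adjusted p = 0.0355), and its call did not hold with DESeq2, with a filter of 1 CPM, or without pre-proB replicate 2 or preB replicate 2. In 19 of the 21 the proB mean lay between the end stages.

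Interferon-stimulated and antigen presentation genes were mostly lower. Of 24 interferon-stimulated genes 16 (66.7%) were lower and 2 (8.33%) higher, against 36.0% and 35.8% of all genes tested. Bst2 (tetherin), shown above, fell from 1342 and 1432 to 16.7 and 22.7 CPM and Irf7 from 285 and 361 to 7.17 and 12.2 CPM, and both are also plasmacytoid dendritic-like markers. Ddx58, the RNA sensor RIG-I, rose instead, from 20.4 and 15.3 through 52.4 and 53.7 to 136 and 157 CPM. Of 11 genes of MHC class II presentation 9 (81.8%) were lower and 1 (9.09%) higher, against the same shares of all genes. H2-Aa was at 927 and 1032 CPM in pre-proB cells, at 64.7 and 70.4 CPM in proB cells and at 93.3 and 93.7 CPM in preB cells. Cd74, the invariant chain, was lowest in proB, with 180.0 and 232 CPM against 435 and 511 in preB and 2147 and 2433 in pre-proB. H2-Ob, the chain that restrains peptide loading in B cells, was the gene that rose, from 91.7 and 54.6 to 270.1 and 280.5 CPM.

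Of 19 genes of the interleukin-7 receptor pathway, 10 (52.6%) were called higher and 6 (31.6%) lower. The share of lower genes was near the 36.0% of all genes tested, and 35.8% of all were higher. Bcl2 and Bcl2l1, which both protect from apoptosis, moved in opposite directions: Bcl2 fell from 65.0 and 90.7 to 6.12 and 5.39 CPM, and Bcl2l1 rose from 14.0 and 10.7 to 203 and 210.0 CPM. The D cyclins, which drive entry into the cell cycle, followed 3 courses. Ccnd1 fell from 604 and 737 through 12.7 and 16.6 to 5.83 and 6.93 CPM. Ccnd3 rose from 226 and 240.1 to 950.4 and 1013 CPM in proB and stood at 582 and 597 CPM in preB. Ccnd2 was at 75.3 and 72.0 CPM in pre-proB cells, at 270.1 and 278 CPM in proB cells and at 67.0 and 70.5 CPM in preB cells, a net log2 fold change of -0.10 with 95% limits of -0.23 and 0.04.

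Cell cycle and DNA replication genes were higher in preB than in pre-proB cells and highest in proB. Of 47 tested, 44 (93.6%) were called higher over the span and 2 (4.26%) lower (Ccnd1 and Cdk6), against 35.8% and 36.0% of all genes. The median log2 fold change was 1.31, and the proB mean lay above both ends in 40. Mki67, a marker of cycling cells, was at 439 and 465 CPM in pre-proB cells, at 2128 and 1973 CPM in proB cells and at 1611 and 1206 CPM in preB cells. E2f2, an E2F factor of S phase genes, rose further, from 61.4 and 43.7 through 603 and 564 to 869 and 788 CPM.

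Genes that came back were defined by 3 conditions: a called step from pre-proB to proB, a called step in the opposite direction from proB to preB, and a 95% interval of the net change within 2-fold in either direction. The steps share the proB libraries, so the counts describe and carry no test of their own. High in proB and back in preB were 1803 genes (13.5%), and low in proB and back were 1363 (10.2%). Back within 2-fold is not the same as equal. Of the 1803 genes, 836 were called higher in preB than in pre-proB, 159 lower and 808 not called, and of the 1363, 252 were higher, 501 lower and 610 not called. Most excursions were small, with a median for the smaller step of 0.47 and 0.42 on the log2 scale, and 187 and 105 genes had both steps at least 2-fold.

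Myc, the growth regulator, had the largest smaller step of the genes high in proB that returned. It was at 20.7 and 14.2 CPM in pre-proB cells, at 174 and 184 CPM in proB cells and at 20.2 and 23.8 CPM in preB cells, with steps of 3.37 and -3.03 and a net log2 difference of 0.34 (95% limits of -0.04 and 0.71). Impdh1 and Shmt1, enzymes of guanine nucleotide and folate metabolism, returned as well. Impdh1 stood at 122 and 52.8, 351 and 351, and 64.7 and 81.6 CPM, and Shmt1 at 13.6 and 11.4, 77.8 and 85.5, and 20.2 and 21.0 CPM. Shmt1 kept a called net log2 fold change of 0.72 (edgeR adjusted p = 0.00047). The thioredoxin reductase gene Txnrd3 was at 11.8 and 6.55 CPM in pre-proB cells, at 61.9 and 67.3 CPM in proB cells and at 8.52 and 9.60 CPM in preB cells. Uaca, 2900026A02Rik, the adaptor Sh2d2a and the phosphatase gene Ctdspl completed the group, with proB means between 16.7 and 149 CPM. In Uaca, 2900026A02Rik and Impdh1 the pre-proB libraries were over 2-fold apart, as for the B lineage genes above, and the step up to proB was 2.87 or 1.40 for 2900026A02Rik without pre-proB replicate 1 or 2, 2.65 or 1.46 for Impdh1 and 3.16 or 1.98 for Uaca, on the log2 scale.

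Genes that dipped in proB included Cacna1e, a voltage-gated calcium channel, at 355 and 276 CPM in pre-proB cells, at 65.0 and 61.9 CPM in proB cells and at 335 and 297 CPM in preB cells. Its net log2 difference was 0.00 with 95% limits of -0.27 and 0.27. Bcl3, a nuclear IκB protein, went from 26.0 and 29.5 to 5.49 and 7.95 and back to 26.0 and 27.0 CPM. Card6, a CARD-domain protein, was at 137 and 149, 34.7 and 31.5, and 119.6 and 113 CPM, with a net log2 difference of -0.30 that was called (edgeR adjusted p = 0.0042), though not when all 8 libraries were fitted (adjusted p = 0.0588). Tmem163 and Tent5a came back in part, at net log2 differences of -0.73 and -0.46, each called. Dnase1l3, a secreted nuclease, had 18.4 and 20.4, 4.24 and 4.60, and 13.3 and 18.9 CPM. Serpina3g belongs to a cluster of near-identical genes that can share reads, and stood at 14.0 and 15.5, 3.34 and 5.57, and 14.4 and 21.1 CPM.

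**Figure D3:**
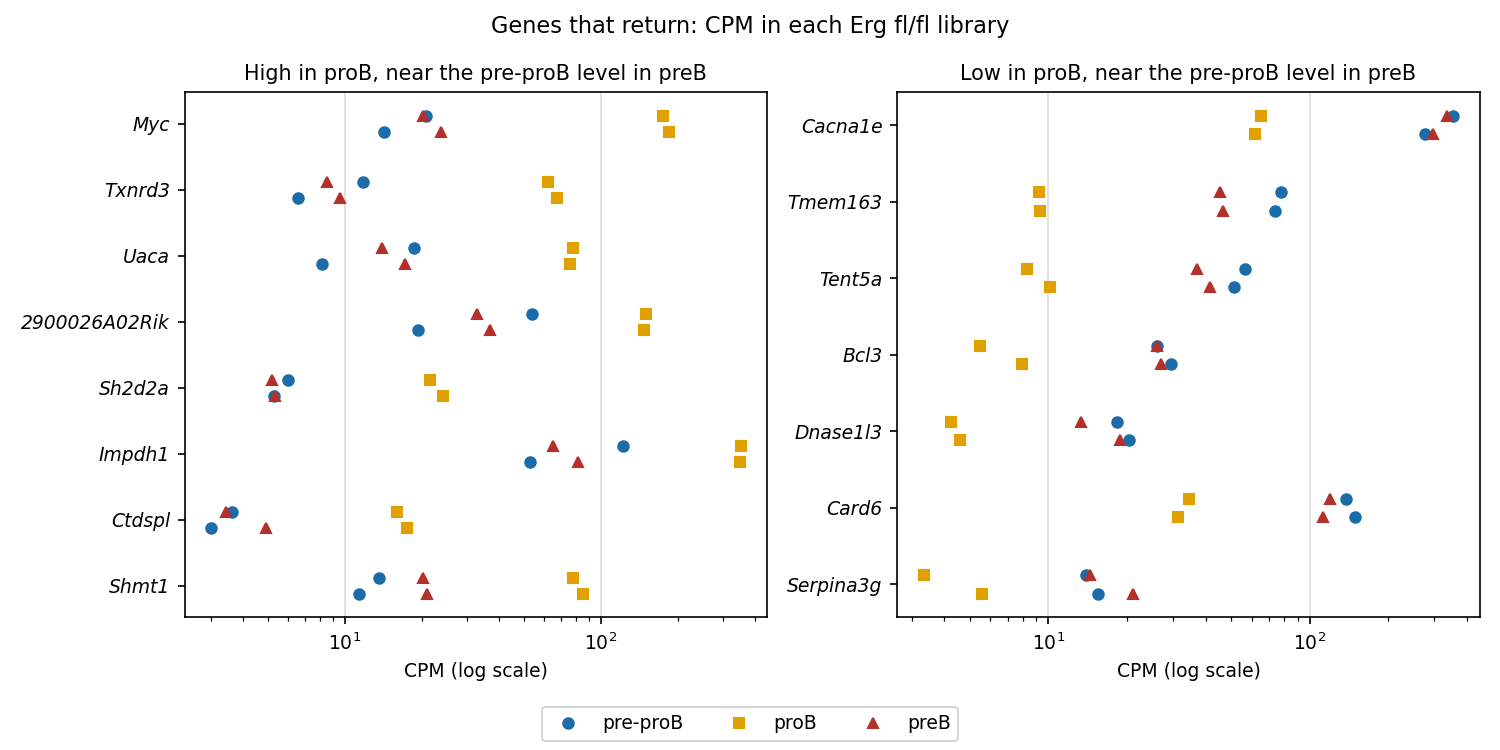
CPM on a log scale in each of the 6 Erg fl/fl libraries for 8 genes high in proB (left) and 7 genes low in proB (right) among those with the largest smaller step among genes that returned. Squares (proB) stand apart from circles (pre-proB) and triangles (preB), for example Myc at 174 and 184 CPM in proB and between 14.2 and 23.8 CPM at both ends.

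Ribosomal protein genes had the largest share of members high in proB and back in preB among the lists examined. Of 82 cytosolic ribosomal protein genes tested, 62 (75.6%) were high in proB and back in preB, where 13.5% of all genes were, and 53 of the 62 had no called net change. Their excursion was small: the median step up was 0.42 and the median step down -0.43 on the log2 scale. The median net change of the 82 was 0.00, with 8 called higher and 9 lower. These 2 counts rested on single libraries: without preB replicate 1 they were 20 and 4 with a median of 0.11, and without preB replicate 2 they were 4 and 23 with a median of -0.07. Between 46 and 68 members returned when any library was left out. Rpl31 did not return and fell throughout, from 1010.1 and 1105 through 481 and 526 to 351 and 405 CPM. Ribosomal protein genes have many processed pseudogenes that can share reads with them.

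Glycolysis genes took the same course in part. Of 18, 8 (44.4%) were high in proB and back, where 13.5% of all genes tested were. Over the span 4 (22.2%) were called higher and 9 (50.0%) lower, against 35.8% and 36.0% of all genes tested. Gapdh was at 339 and 355 CPM in pre-proB cells, at 859.8 and 924 CPM in proB cells and at 349 and 377 CPM in preB cells, and Ldha, which makes lactate, at 233 and 248, 596 and 670.4, and 186 and 210.0 CPM. Pkm, the pyruvate kinase, stood at 331 and 322, 604 and 668, and 282 and 312 CPM. The membrane transporters did not return. Slc2a3, a glucose transporter, fell from 135 and 149 through 30.3 and 36.5 to 17.3 and 16.6 CPM, and Slc16a1, which carries lactate and pyruvate, rose from 27.0 and 14.9 to 396 and 388 CPM in proB and stood at 311 and 307 CPM in preB.

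**Figure D4:**
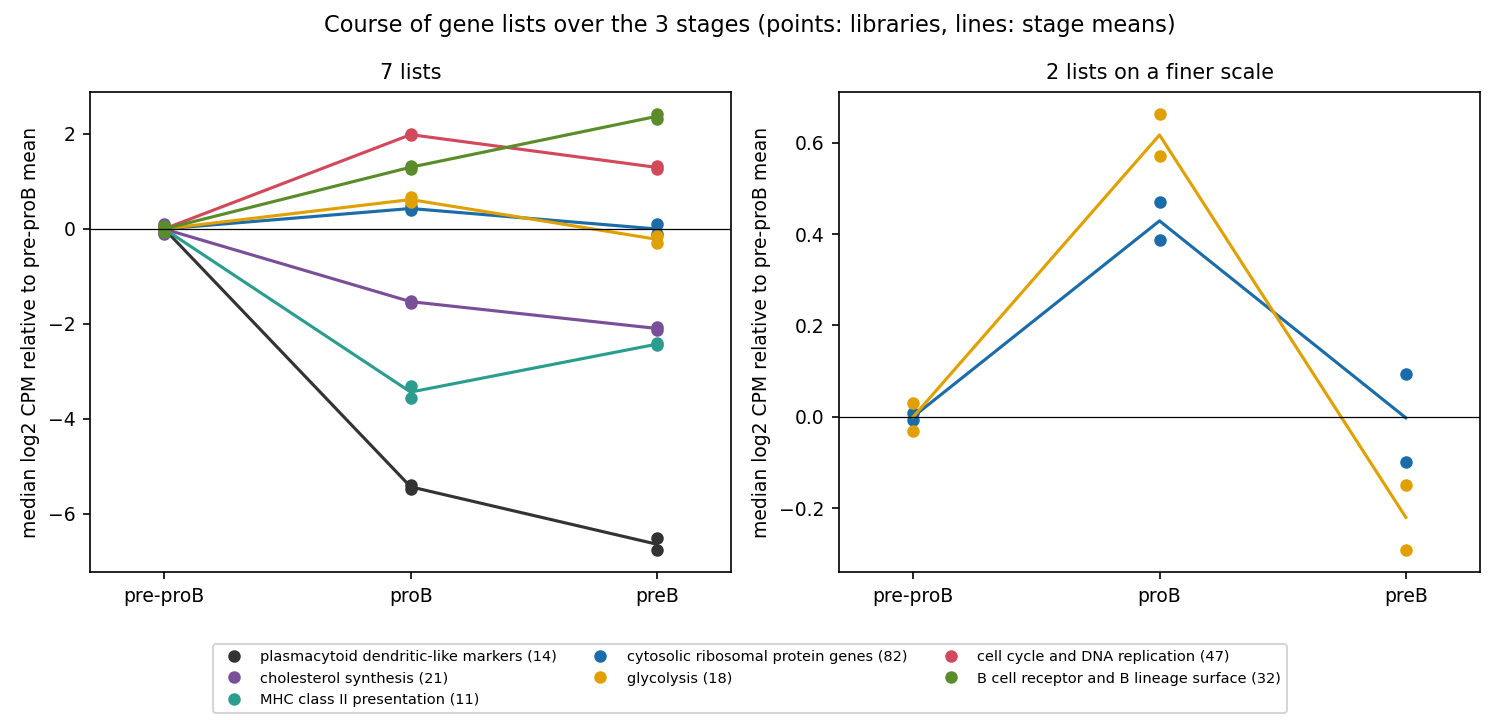
Median over the members of a list of log2 CPM (with 0.5 CPM added) relative to the pre-proB mean, for 7 lists in each library (points) with stage means (lines), and for ribosomal protein and glycolysis genes again on a finer scale. B lineage surface genes climb to 2.32 and 2.42 in preB, plasmacytoid dendritic-like genes sink to -6.77 and -6.52, and ribosomal protein genes reach 0.39 and 0.47 in proB and lie at -0.10 and 0.09 in preB.

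With 2 libraries against 2, the smallest p that an exact permutation test (two-sided) can give for a gene is 0.33, and the edgeR p values draw on information from all genes about the spread. CPM are shares of a library, so they do not tell whether a cell held more or less RNA in all.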

How the data were processed

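RNA-seq libraries of sorted bone marrow B cell progenitors were compared, 2 per group. The authors deposited raw read counts per Entrez gene. Their processing notes name CASAVA 1.8.2, Trim Galore, STAR and featureCounts and the mm10 build, and their settings are not stated in the labels. Groups were taken from the labels.

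From the deposited counts, genes were kept that reached 0.5 CPM or more in 2 or more of the 4 preB and pre-proB libraries. A quasi-likelihood model (edgeR 4.0.16 in R 4.3.3, legacy estimation, with limma 3.58.1) was fitted to the 6 Erg fl/fl libraries with TMM scaling. Adjusted p values are Benjamini-Hochberg values over all genes tested, intervals are 95% limits of the log2 fold change, and CPM use TMM-scaled totals. Symbols came from a RefSeq table, and 309 tested genes had none. The script was tested on simulated data. The libraries held between 15565381 and 18457632 counts, and floors of 3 counts cover counting error only. The study's methods describe the replicates as biological, sorted independently from 2 mice per genotype. The p values weigh a difference against a spread estimated from the 6 libraries with information from all genes.

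The genes, lists and tests were chosen with earlier results of these data known. Named genes were, for gains and losses alike, the 12 called genes that changed most and the 5 with the lowest p value (at least 10 CPM in the higher stage, a count in each library, no overlap of the stages, no immunoglobulin or T cell receptor segments), the 8 returning genes with the largest smaller step, members of the lists described, and Erg. Some genes that this takes are not reported here. Alternatives were other scalings, filters, tools (DESeq2 1.42.0, limma-voom), library sets, thresholds, a replicate block and leaving out each library. The 2 stricter return rules were added after seeing the data.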

Additional observations from a re-analysis of the deposited data

How the results depend on the processing

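No alternative scaling, filter, tool or set of libraries reversed a call made over all genes: between 81.3% and 99.5% of the 9618 calls kept their direction, and the share of higher genes among those called lay between 47.6% and 52.6%. DESeq2 called 8676 genes, 8653 of them among the 9618. Asking for a 2-fold change as well left 4479 called genes, 1692 higher (37.8%) and 2787 lower. The number that returned to the pre-proB level, 3166, was 1581 (946 high and 635 low in proB) when the net change had to be not called and no interval was set. It was 1418 (808 and 610) when both were asked, and 292 (187 and 105) when the interval was kept and both steps had to be at least 2-fold; these last 2 rules were chosen after seeing the data. With each library left out in turn, between 8082 and 9255 genes were called (3982 to 4588 higher, 4060 to 4670 lower) and between 2274 and 3079 returned (1330 to 1657 high in proB, 944 to 1422 low), the fewest without proB replicate 2. Where a stage was left with 1 library, that library was assumed to vary like the others.

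A fit with the replicate number as a block called 9727 genes (4864 higher, 4863 lower) and returned 3285 (1861 and 1424). It kept 9515 of the 9618 calls (98.9%). Deviations of same-numbered libraries correlated at 0.255 for pre-proB and proB, 0.054 for pre-proB and preB and 0.168 for proB and preB over 9236 genes. With 2 numbers and no label that ties them, the libraries were not treated as paired.

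Among single genes, 2605 values for 141 differences under 19 alternatives held 2581 on the same side of the threshold with the same direction, 17 that lost the call, 5 that gained it and 2 that reversed: Igll1 at 0.57 and Vpreb1 at 0.27 without pre-proB replicate 1 (without replicate 2 they were at -1.004 and -1.30). Vpreb2 lost its call under DESeq2 (adjusted p = 0.0688), limma-voom (0.0848) and robust estimation (0.168), and without any library but pre-proB replicate 2 (0.0509 to 0.19). Hsd17b7 lost it under DESeq2 (adjusted p = 0.0562), a filter of 1 CPM (0.0503), and without pre-proB replicate 2 (0.127) or preB replicate 2 (0.233). Ighg1 and Ighg2c lost theirs under limma-voom and robust estimation. Erg gained one with no filter (adjusted p = 0.0439), with all 8 libraries (0.0467) and without pre-proB replicate 2. The cause of these shifts was not tested.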

Other observations

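Genes outside the protein-coding class were tested as well, by RefSeq class. Of 507 long non-coding RNA genes, 127 were called higher and 162 lower, so that 57% were called against 71.8% of all genes tested. The genes described here were picked after their values were seen. Gm5547 fell from 47.7 and 50.3 CPM through 1.13 and 0.757 CPM to 0.175 and 0.341 CPM over the 3 stages. BE692007 rose from no more than 1.94 CPM in either pre-proB library through 3.17 and 4.11 to 20.6 and 18.2 CPM, so that most of its gain came after proB. Mir142, the gene of a microRNA of blood cells, was at 10.8 and 6.49 CPM in pre-proB cells, at 10.2 and 10.2 CPM in proB cells and at 25.8 and 17.4 CPM in preB cells. It was 1 of 3 microRNA genes called higher, of 28 tested. Reads of this kind of library come from longer transcripts and do not measure mature microRNAs. Of 60 small nucleolar RNA genes, 12 were called higher and 1 lower, and the 21.7% called lay below the 71.8% of all genes.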
